A study of Mus musculus with 8 samples.

Results

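Cortical gene expression at ZT16 was compared with that at ZT4 over both genotypes of the series, using 4 mice at ZT16 and 4 mice at ZT4. ZT counts hours from light onset under 12 h light and 12 h dark, so ZT16 lies in the dark and ZT4 in the light. The groups were 2 S1/2-/- and 2 WT mice at ZT16, and 2 S1/2-/- and 2 WT mice at ZT4, each mouse with its own array. These 8 arrays are all arrays of the series, and they were chosen by the time and genotype in their labels. S1/2-/- mice lack both *Sharp1* (*Bhlhe41*) and *Sharp2* (*Bhlhe40*), and WT mice carry both genes. All were 4 months old on the C57/bl6 strain, and per the methods the animals were male and bred from double heterozygous parents on a backcrossed background. The tissue was a block of cortex cut from coronal slices, so neurons, glia and vessels were measured together. Of the 12488 probe sets in the table, the 12422 that are not control probe sets were compared, with genotype as a covariate.

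In the mammalian clock, CLOCK or NPAS2 pairs with BMAL1 (*Arntl*) and binds E-boxes in the promoters of the *Per* and *Cry* genes, whose proteins then repress that pair. SHARP1 and SHARP2 are repressors that act on the same E-boxes. Output genes such as the PAR-bZIP factors *Dbp*, *Tef* and *Hlf* carry the rhythm onward through D-boxes, while the nuclear receptors *Nr1d1*, *Nr1d2* and *Rora* set the rhythm of *Arntl*. In cortex, time of day is also read out by genes that follow neuronal activity, temperature and feeding.

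The E-box is the element on which this loop turns, and stretches of promoter that hold it are shown for *Per1*, *Cry1* and *Tef*, which are among the genes with higher signals at ZT16 in both genotypes. The E-box CACGTG is in capitals, each stretch reads 5′ to 3′ on the strand of the gene, and the sequences and their coordinates are those of RefSeq on GRCm38.p6.
Per1 (chr11:69098736-69098835, + strand): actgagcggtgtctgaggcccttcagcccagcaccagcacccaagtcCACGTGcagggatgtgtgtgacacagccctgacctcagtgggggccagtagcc
Cry1 (chr10:85185062-85185161, - strand): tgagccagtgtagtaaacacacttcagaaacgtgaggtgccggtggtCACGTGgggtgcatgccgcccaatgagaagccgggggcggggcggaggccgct
Tef, first start site (chr15:81802499-81802598, + strand): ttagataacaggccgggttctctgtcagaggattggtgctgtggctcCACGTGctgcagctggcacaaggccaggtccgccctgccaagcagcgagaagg
Tef, second start site (chr15:81811229-81811328, + strand): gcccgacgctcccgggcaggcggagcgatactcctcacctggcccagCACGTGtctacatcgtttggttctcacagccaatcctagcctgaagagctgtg

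The E-box starts 166 bases before the start of *Per1* (in 1 of its 2 promoter windows), 60 before that of *Cry1*, and 127 and 138 before those of *Tef*. A window covers 250 bases before to 50 after a start, and 7.15% of all 32851 windows hold CACGTG, which reads the same on both strands. Of the 34 genes of this comparison that were looked up, 30 were matched, with 40 windows. No window was found for *Per2*, *Bhlhe40*, *Manf* and *Sqle*, so their promoters were not searched. Among the 40 windows, 7 windows of 6 genes held an E-box, those of *Per1*, *Cry1*, *Tef*, *Egr2*, *Anln* and *Mfsd4a*. No window of the clock genes *Per3*, *Cry2*, *Nr1d1*, *Nr1d2*, *Arntl*, *Clock*, *Npas2*, *Dbp* and *Nfil3* held it. A match of letters is a description of the window and no binding was measured.

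The signals had a trimmed mean of 500 on every array and medians of 186 to 206, and log2 signals of the 2 mice in each group had correlations of 0.936 to 0.940. Of the 17 markers of neurons in general on the array, 17 lay above the 40th percentile of mean log2 signal, as did 14 of 15 markers of cortical pyramidal layers. So did 5690 of all 8251 genes with a symbol, 8 of 10 thalamus markers and 7 of 9 striatal markers. Passing this level therefore does not set cortex apart from other regions. WT ZT16 replicate 2 stood apart, with 204 of the 7453 probe sets above the 40th percentile more than 1 log2 unit below their mean on the other arrays, against 65 to 123 on each of the others. Its ratio of the 3′ to the 5′ *Actb* control probe set was 2.01, within the range of 1.76 to 2.30 over all arrays. The same ratio for *Gapdh* separated the times, at 0.918 to 0.961 on the 4 ZT16 arrays, of which WT replicate 2 had the highest, against 0.884 to 0.887 on the 4 ZT4 arrays. A sign of RNA quality or labelling thus moved with the time, and its part in the differences described here was not tested.

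In limma, 0 of the 12422 probe sets (0%) passed a fold change over 1.5 with an adjusted p under 0.05, and the lowest adjusted p was 0.443. An analysis of variance, the kind of test named in the methods, also called 0, with a lowest adjusted p of 0.269. It was fitted here with genotype and time over all 8 arrays. The paper reports the times within each genotype, so its model may differ. At an unadjusted p under 0.05, limma gave 523 probe sets that were higher at ZT16 (4.21%) and 435 that were lower (3.50%), and the analysis of variance gave 898 in all. With the fold threshold, 228 higher and 191 lower probe sets remained in limma. All 4 ZT16 arrays lay above all 4 ZT4 arrays at 283 probe sets (2.28%) and below them at 237 (1.91%). A change in the same direction of over 1.5-fold in each genotype, with no overlap of the times, was found at 76 higher probe sets (0.612%) and 56 lower ones (0.451%). Among the 7453 probe sets above the 40th percentile these were 21 (0.282%) and 6 (0.0805%), and the genes among them are described as shared by both genotypes. The words higher and lower are therefore used of measured values, since no single gene passed the test over all probe sets.

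*Per2*, which encodes a repressor of the clock, had the largest change among the 11 listed clock repressors, each taken at its strongest probe set. Its signals were 300.2 and 288 in the S1/2-/- mice and 264 and 312 in the WT mice at ZT16, against 96.1 and 158 in the S1/2-/- mice and 131 and 133 in the WT mice at ZT4. Every ZT16 mouse was above every ZT4 mouse, and the lowest at ZT16 was a WT mouse. The mean was 291 ± 20.4 at ZT16 and 129.6 ± 25.4 at ZT4 (SD, n = 4 mice each), 2.28-fold higher at ZT16, with a log2 fold change of 1.19 (standard error 0.21, unadjusted p = 0.000204 and adjusted p = 0.443 from limma). The fold change was 2.39 in S1/2-/- mice and 2.17 in WT mice, and the difference of the log2 changes, 0.14, had a 95% interval of -0.86 to 1.14. In tissue of mixed cells, a change in the number of cells of a type and a change in RNA per cell cannot be told apart, for this and the following genes.

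*Per1*, the other rapidly induced period gene, had signals of 1004 and 620.3 in the S1/2-/- mice and 585 and 833 in the WT mice at ZT16, against 423 and 527 in the S1/2-/- mice and 446 and 462 in the WT mice at ZT4. The times did not overlap, but 1 S1/2-/- and 1 WT mouse at ZT16 lay close to the highest ZT4 mouse. It was 1.60-fold higher at ZT16 (log2 0.68, 95% interval 0.30 to 1.06), with 1.67-fold in S1/2-/- and 1.54-fold in WT mice. *Cry1*, the cryptochrome whose protein represses CLOCK and BMAL1, had signals of 919 and 677 in the S1/2-/- mice and 879 and 1116 in the WT mice at ZT16, against 459 and 626 in the S1/2-/- mice and 453 and 555 in the WT mice at ZT4. Again the times were separate, with the lowest ZT16 signal in an S1/2-/- mouse. The log2 change was 0.77 (95% interval 0.41 to 1.13), 0.56 in S1/2-/- and 0.98 in WT mice, and the interval of the difference, -1.13 to 0.27, includes 0. The other 2 *Cry1* probe sets had signals of at most 31.8 and were too dim to compare.

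*Tef*, a PAR-bZIP output factor with an E-box in both promoter windows shown above, also had separate times, with 2982 and 3289 in S1/2-/- and 2971 and 2840.1 in WT mice at ZT16, and 1808 and 2426 in S1/2-/- and 1902 and 2377 in WT mice at ZT4. At ZT16 both S1/2-/- mice were above both WT mice, and at ZT4 the genotypes overlapped. Its log2 change was 0.52 (standard error 0.11), 0.58 in S1/2-/- and 0.45 in WT mice, which is under 1.5-fold in both. *Btrc*, part of the ubiquitin ligase that marks PER proteins for degradation, also had separate times, with 567 to 684 at ZT16 against 497 to 558 at ZT4 (log2 0.27). Its second probe set overlapped between the times (log2 0.10).

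**Figure D1:**
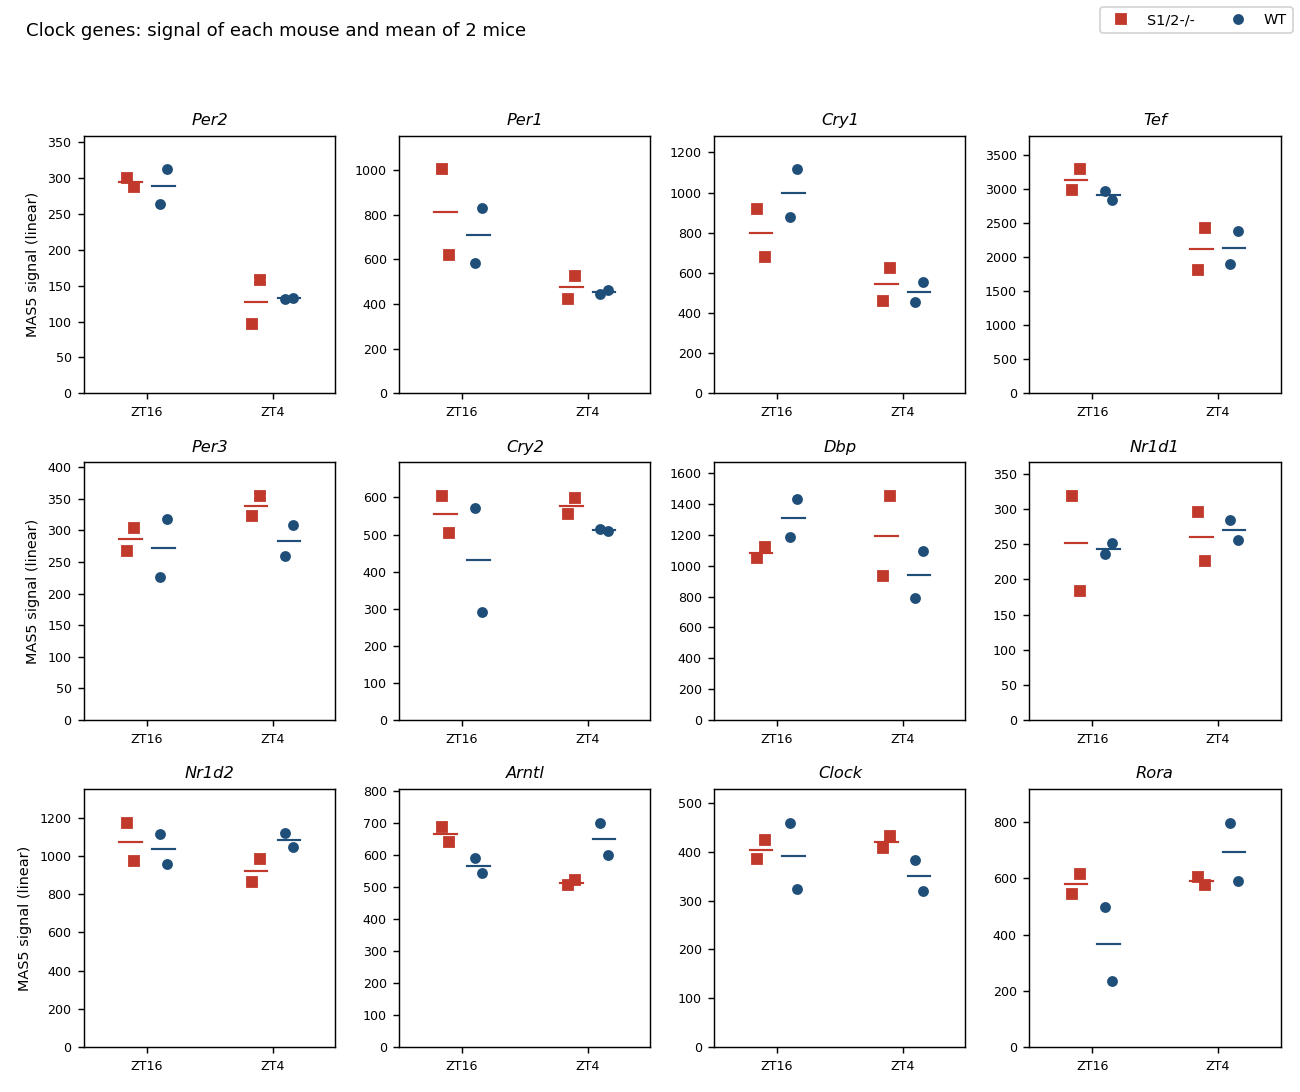
MAS5 signal (linear scale, each panel from 0) of 12 clock genes in each mouse, with ZT16 left of ZT4, squares for S1/2-/- and circles for WT, and a line at the mean of the 2 mice. *Per2*, *Per1*, *Cry1* and *Tef* are higher in all 4 mice at ZT16 than in any at ZT4, while the times overlap for the other genes.

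As the plot of clock gene signals shows, most of the loop did not separate the times. Of the 11 listed clock repressors and their kinases on the array, 8 were higher and 3 lower at ZT16, 4 had no overlap of the times, and 5 had an unadjusted p under 0.05, all of them higher. For all 8251 genes with a symbol, 376 were higher and 279 lower at that p, 7.94% in all. Of these 8251, 208 higher and 162 lower genes had no overlap of the times. The median log2 change of the repressors was 0.17, against 0.00 over all genes. The summed signal of the 11 was 7985 to 8920 at ZT16 and 6785 to 7124 at ZT4. The fifth gene at that p was *Bhlhe40*, the *Sharp2* gene itself, with 1043 and 889 in S1/2-/- and 1188 and 1285 in WT mice at ZT16 and 913 and 834 in S1/2-/- and 1074 and 983 in WT mice at ZT4 (log2 0.20). The sources used here do not place this probe set within or outside the deletion, so the signal in S1/2-/- mice is no check of it.

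*Per3*, the remaining period gene, had overlapping times, with 226 to 318 at ZT16 against 259 to 354 at ZT4 (log2 -0.16, 95% interval -0.53 to 0.21). *Cry2* had 293 to 604 at ZT16 and 511 to 598 at ZT4 (log2 -0.19), and its lowest value came from WT ZT16 replicate 2, without which the log2 change was 0.03. *Nr1d1* and *Nr1d2*, the REV-ERB receptors that repress *Arntl*, had log2 changes of -0.12 (95% interval -0.57 to 0.33) and 0.07 (-0.16 to 0.31). *Csnk1d* and *Csnk1e*, the casein kinases that phosphorylate PER proteins, had 0.17 and 0.02, and the other 3 *Csnk1d* probe sets gave 0.36, -0.15 and -0.74.

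None of the 4 clock activators on the array had an unadjusted p under 0.05. *Arntl*, which encodes BMAL1, had 689 and 640.5 in S1/2-/- and 591 and 544 in WT mice at ZT16, and 506 and 522 in S1/2-/- and 702 and 599 in WT mice at ZT4. It was higher at ZT16 in the S1/2-/- mice and lower in the WT mice (log2 0.37 and -0.19). The difference between the genotypes was 0.56, with an unadjusted 95% interval of 0.09 to 1.04 and an adjusted p of 0.828 from limma. *Clock* had a log2 change of 0.04 (95% interval -0.29 to 0.37), and *Npas2*, its paralog in forebrain, 0.26 (-0.85 to 1.38). *Rora* had -0.52 (-1.09 to 0.05), with -0.03 in S1/2-/- and -1.003 in WT mice, and without WT ZT16 replicate 2 it was -0.20. A dim second probe set of *Rora* gave 0.20. Among the output factors, *Dbp* had 1049 and 1118 in S1/2-/- and 1187 and 1431 in WT mice at ZT16, and 936 and 1451 in S1/2-/- and 789 and 1096 in WT mice at ZT4. The times overlapped, and the log2 change was -0.11 in S1/2-/- and 0.49 in WT mice (difference -0.59, 95% interval -1.30 to 0.11). *Nfil3*, which competes with the PAR-bZIP factors at D-boxes, had 2 probe sets that disagreed, at -0.28 and 0.73. Of 15 other listed outputs of the clock in many tissues, 7 were higher and 8 lower, and none had separate times. Only 1, *Tspan4* (log2 0.50), had an unadjusted p under 0.05, which is 6.67% against 7.94% over all genes.

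The 15 probe sets with the lowest p in each direction, taken among those above the 40th percentile with 1 symbol, are shown with their changes in each genotype in the plot of leading genes. On the higher side *Per2*, *Cry1* and *Tef* stood beside *Anln*, *Wbp1*, *Junb*, *Gtf2f2*, *Pdxk*, *Tcf3*, *Bcan*, *Tmem38b*, *Dusp6*, *Ptpn23*, *Ilk* and *Supt6*. *Anln*, which encodes the cytoskeletal scaffold anillin and is a marker of myelinating cells, had 628 and 680.1 in the S1/2-/- mice and 955 and 893 in the WT mice at ZT16, against 498 and 428 in the S1/2-/- mice and 383 and 417 in the WT mice at ZT4. The times were separate and the ZT16 signals were higher in WT than in S1/2-/- mice. Its log2 change was 0.86 (standard error 0.15), 0.50 in S1/2-/- and 1.21 in WT mice, with a difference of -0.71 (unadjusted 95% interval -1.19 to -0.22, adjusted p = 0.754 from limma). *Wbp1*, which encodes a WW domain binding protein, gave nearly the same change in both genotypes, 0.53 in S1/2-/- and 0.57 in WT mice, with 1419 to 1663 at ZT16 against 922 to 1161 at ZT4.

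*Tcf3*, which encodes the E2A helix-loop-helix factor, had 294 and 304 in S1/2-/- and 218 and 238 in WT mice at ZT16, and 121 and 77.1 in S1/2-/- and 147 and 117 in WT mice at ZT4. The times were far apart in S1/2-/- mice and closer in WT mice (log2 1.63 and 0.80, difference 0.84, 95% interval -0.21 to 1.88). *Ptpn23*, which encodes a phosphatase-like protein of endosomal sorting, was 1.77-fold higher in S1/2-/- and 1.71-fold higher in WT mice, with 264 to 449 at ZT16 against 154 to 228 at ZT4. *Pdxk*, the kinase that makes active vitamin B6, had 2780.1 to 3727 at ZT16 against 2484 to 2633 at ZT4 (log2 0.40), with 0.50 in S1/2-/- and 0.29 in WT mice. PAR-bZIP factors are known regulators of this gene. Its dimmer second probe set gave -0.17. *Gtf2f2*, a subunit of the general transcription factor TFIIF, had the largest log2 change among these, 1.60, but its times overlapped (204 to 543 at ZT16 against 74.8 to 288 at ZT4).

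*Ilk* (integrin-linked kinase), *Supt6* (a transcription elongation factor) and *Tmem38b* (an intracellular cation channel) each had separate times, with log2 changes of 0.43, 0.55 and 0.46. *Bcan*, which encodes the matrix proteoglycan brevican, differed more between genotypes than between times: it had 3814 and 3796 in S1/2-/- and 2011 and 2332 in WT mice at ZT16, and 2938 and 2930.4 in S1/2-/- and 1706 and 1883 in WT mice at ZT4. Within each genotype the ZT16 mice were higher (0.37 in S1/2-/- and 0.27 in WT mice on the log2 scale). Its second, dimmer probe set went the other way (log2 -0.79).

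**Figure D2:**
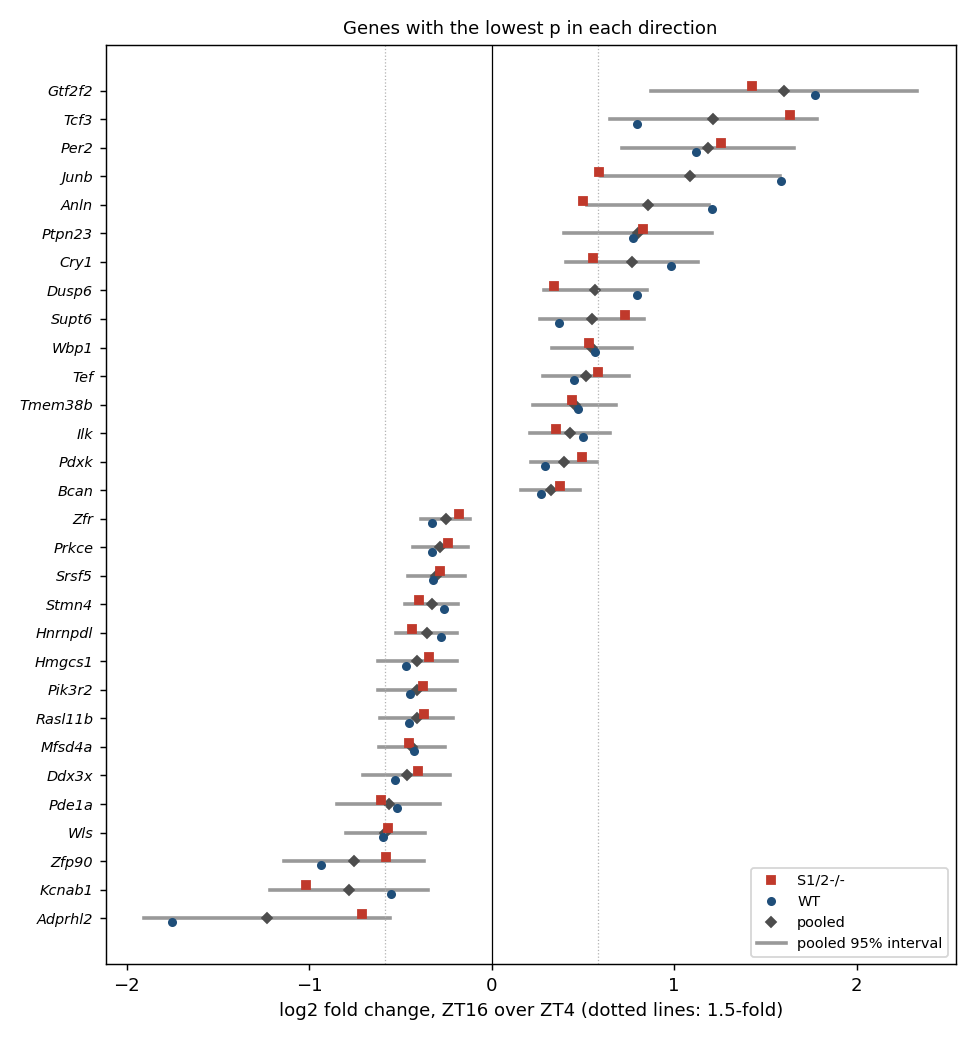
Log2 fold change of ZT16 over ZT4 for the 15 probe sets with the lowest p in each direction, by gene. Diamonds with bars are the pooled change and its 95% interval, squares are S1/2-/- and circles WT mice, and dotted lines mark 1.5-fold. Both genotypes lie on the same side of 0 for all 30, from *Gtf2f2* (1.60) to *Adprhl2* (-1.23). The choice by the p of the pooled change favours such agreement. Of all probe sets above the 40th percentile, 54.9% had the same sign in both genotypes.

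On the lower side, *Wls*, which encodes the carrier that brings WNT proteins to the cell surface, had the lowest p of the 30 genes in the plot. It had 403 and 425 in S1/2-/- and 619.97 and 562 in WT mice at ZT16, and 595 and 634 in S1/2-/- and 935 and 851 in WT mice at ZT4. In each genotype both ZT16 mice were below both ZT4 mice, while WT mice were above S1/2-/- mice at each time, so the pooled times overlapped. The log2 change was -0.58 (95% interval -0.80 to -0.37), -0.57 in S1/2-/- and -0.60 in WT mice, with adjusted p = 0.443 from limma. *Mfsd4a*, a transporter of the major facilitator family, had 720.3 and 715 in S1/2-/- and 862 and 799 in WT mice at ZT16, and 984 and 978 in S1/2-/- and 1163 and 1070.01 in WT mice at ZT4. All ZT16 mice were lower, with log2 changes of -0.45 in S1/2-/- and -0.43 in WT mice, and the interval of the difference was -0.41 to 0.36.

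*Stmn4*, a neuronal microtubule-binding stathmin, had 2469 to 2658 at ZT16 against 2979.9 to 3416 at ZT4 (log2 -0.33). *Hnrnpdl*, an hnRNP of the nucleus, had separate times in both of its stronger probe sets (log2 -0.36 and -0.51). *Srsf5*, a splicing factor, had 2116 to 2407 at ZT16 against 2628 to 3094 at ZT4 (log2 -0.30). *Zfr*, an RNA-binding zinc finger protein, and *Ddx3x*, an RNA helicase, had -0.25 and -0.47, also with separate times, and the 2 dimmer *Ddx3x* probe sets gave -0.13 and 0.35.

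*Pde1a*, a phosphodiesterase driven by calcium and calmodulin, had 868 and 783 in S1/2-/- and 900.2 and 657 in WT mice at ZT16, and 1413 and 1117 in S1/2-/- and 1220.4 and 998 in WT mice at ZT4. It was lower in every ZT16 mouse (log2 -0.56), and its second probe set pointed the same way (-0.30). *Pik3r2*, a regulatory subunit of PI3 kinase, and *Prkce*, protein kinase C epsilon, had -0.41 and -0.28 with separate times. The second *Prkce* probe set gave 0.04. *Kcnab1*, a subunit of voltage-gated potassium channels, had -0.78 at a dim probe set, and at its stronger one -0.11, with -0.63 in S1/2-/- and 0.42 in WT mice. *Zfp90*, a zinc finger repressor, had 177 and 221 in S1/2-/- and 161 and 171 in WT mice at ZT16, and 279.9 and 310.3 in S1/2-/- and 315 and 318 in WT mice at ZT4, with separate times in both genotypes (log2 -0.76). *Rasl11b*, a small GTPase, had -0.41 with overlapping times. *Adprhl2* encodes an ADP-ribose hydrolase, and its 2 probe sets opposed each other (log2 -1.23 and 0.69).

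Of the 27 shared probe sets above the 40th percentile, 24 carried 1 symbol each, 18 higher and 6 lower at ZT16. Besides *Per2*, *Per1*, *Tcf3*, *Ptpn23*, *Junb* and *Egr2*, the higher ones were *P4ha2*, *Lbp*, *Pheta1*, *Dlx5*, *Sf1*, *Ubxn11*, *Plg*, *Apoa5*, *Scd1*, *Trav9d-3*, *Ccl22* and *Ormdl1*. *P4ha2*, which hydroxylates collagen, had 195 to 243 at ZT16 against 43.3 to 156 at ZT4 at 1 probe set, and a log2 change of 0.39 at the other. *Lbp*, the lipopolysaccharide-binding protein, had 138 and 221 in S1/2-/- and 379.5 and 378 in WT mice at ZT16, and 68.7 and 125 in S1/2-/- and 55.8 and 122 in WT mice at ZT4. *Pheta1*, an endosomal adaptor, and *Dlx5*, a homeobox factor of interneuron development, had log2 changes of 1.36 and 1.16 with separate times. Without S1/2-/- ZT4 replicate 2 the change of *Pheta1* was 0.90, and without WT ZT4 replicate 2 that of *Dlx5* was 0.59. *Sf1*, *Ubxn11*, *Plg* and *Apoa5* each had 1 probe set of this kind, with changes of 1.02, 0.70, 0.73 and 0.70, and other probe sets whose intervals include 0. *Scd1*, which makes monounsaturated fatty acids, qualified at a probe set of 146 to 326 at ZT16 against 50.7 to 130.4 at ZT4. Its 2 strong probe sets gave -0.00 and 0.19, with intervals that include 0. *Ccl22*, a chemokine, had 244 to 362 at ZT16 against 193 to 216 at ZT4 (log2 0.63), and *Ormdl1*, a regulator of sphingolipid synthesis, 126 to 188 at ZT16 against 71.6 to 124 at ZT4 (log2 0.65). The probe set annotated *Trav9d-3*, a T cell receptor segment, had 0.67, and 1.74 and 0.15 at dimmer probe sets.

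The shared lower genes were *Atp8a1*, *Clcn3*, *Mycl*, *Lat2*, *Adprhl2* and *Gfra2*. *Atp8a1*, which flips phospholipids across membranes, had 237 and 152 in S1/2-/- and 198 and 151 in WT mice at ZT16, and 327 and 285 in S1/2-/- and 297 and 320.5 in WT mice at ZT4, with 1.69-fold lower signals at ZT16. *Clcn3*, a chloride and proton exchanger of vesicles, had 4 probe sets with log2 changes of -0.81, -0.64, -0.09 and -0.05, and the strongest 2 had the smallest changes. WT ZT16 replicate 2 had the lowest signal at the 2 most changed probe sets (168 and 261). Without that array the change of the first was -0.56, under 1.5-fold. *Mycl*, a MYC family factor, had a signal of 111 and 27.4 in the WT mice at ZT16, of which the second is WT ZT16 replicate 2, and 155 and 113 in the S1/2-/- mice, against 208 to 250.02 at ZT4. Its log2 change was -1.43, and -0.90 without that array. *Lat2*, an adaptor of immune cells, had -0.72 at 1 probe set and 0.85 at a dimmer one. *Gfra2*, a receptor for GDNF family ligands, had 108 to 179.99 at ZT16 against 216 to 261 at ZT4 (log2 -0.72), and its stronger probe set gave 0.01. *Ccl22*, *Ormdl1* and *Gfra2* were added after their values were seen.

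Immediate early genes are transcribed within minutes of neuronal activity. Of 21 listed immediate early transcription factors on the array, 13 were higher and 8 lower. An unadjusted p under 0.05 was seen for 5 higher genes and 1 lower gene, 28.6% of the list against 7.94% over all genes. The median log2 change was 0.14, which was -0.01 without S1/2-/- ZT16 replicate 1. *Egr2*, a zinc finger factor of this class, was higher in both genotypes, with 383 and 261 in S1/2-/- and 419 and 259 in WT mice at ZT16, and 223 and 131 in S1/2-/- and 159 and 235 in WT mice at ZT4. The times were separate, and the fold change was 1.85 in S1/2-/- and 1.70 in WT mice. *Junb*, an AP-1 subunit, had 607 and 626 in the S1/2-/- mice and 1181 and 807 in the WT mice at ZT16, against 499.6 and 336 in the S1/2-/- mice and 313 and 337 in the WT mice at ZT4. The times were separate, with the WT mice highest at ZT16 (log2 0.59 in S1/2-/- and 1.59 in WT mice). Its dimmer probe set gave -0.23 in S1/2-/- and 2.75 in WT mice, so in S1/2-/- mice the 2 probe sets went opposite ways.

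*Egr1*, the best known factor of the class, had 3767 and 3225 in S1/2-/- and 4991 and 4458 in WT mice at ZT16, and 2374 and 2775 in S1/2-/- and 2808 and 1248 in WT mice at ZT4, again with separate times. Its log2 change was 0.44 in S1/2-/- and 1.33 in WT mice (difference -0.89, 95% interval -1.83 to 0.05), and the pooled change of 0.89 was 0.56 without WT ZT4 replicate 2. *Dusp6*, a phosphatase that switches off ERK, was higher in all ZT16 mice (0.34 in S1/2-/- and 0.80 in WT mice). A dim second *Egr1* probe set gave 0.36. *Fos*, the AP-1 partner of *Junb*, overlapped between the times when the genotypes were pooled. It had 445 and 341 in S1/2-/- and 1026 and 679 in WT mice at ZT16, and 476 and 264 in S1/2-/- and 282 and 141 in WT mice at ZT4. The pooled log2 change of 1.10 averages 0.13 in S1/2-/- and 2.07 in WT mice, with a difference of -1.93 (unadjusted 95% interval -3.16 to -0.71, adjusted p = 0.676 from limma). Without WT ZT4 replicate 2 the pooled change of *Fos* was 0.71. A dim second *Fos* probe set gave -0.62. *Nr4a1*, a nuclear receptor of this class that was chosen after its values were seen, and *Dusp1*, a phosphatase of MAP kinases, had -0.09 and -0.20 in S1/2-/- mice and 1.68 and 1.67 in WT mice. For the difference of the change between the genotypes, 0 of 12422 probe sets (0%) passed limma, with a lowest adjusted p of 0.413, and 719 had an unadjusted p under 0.05.

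**Figure D3:**
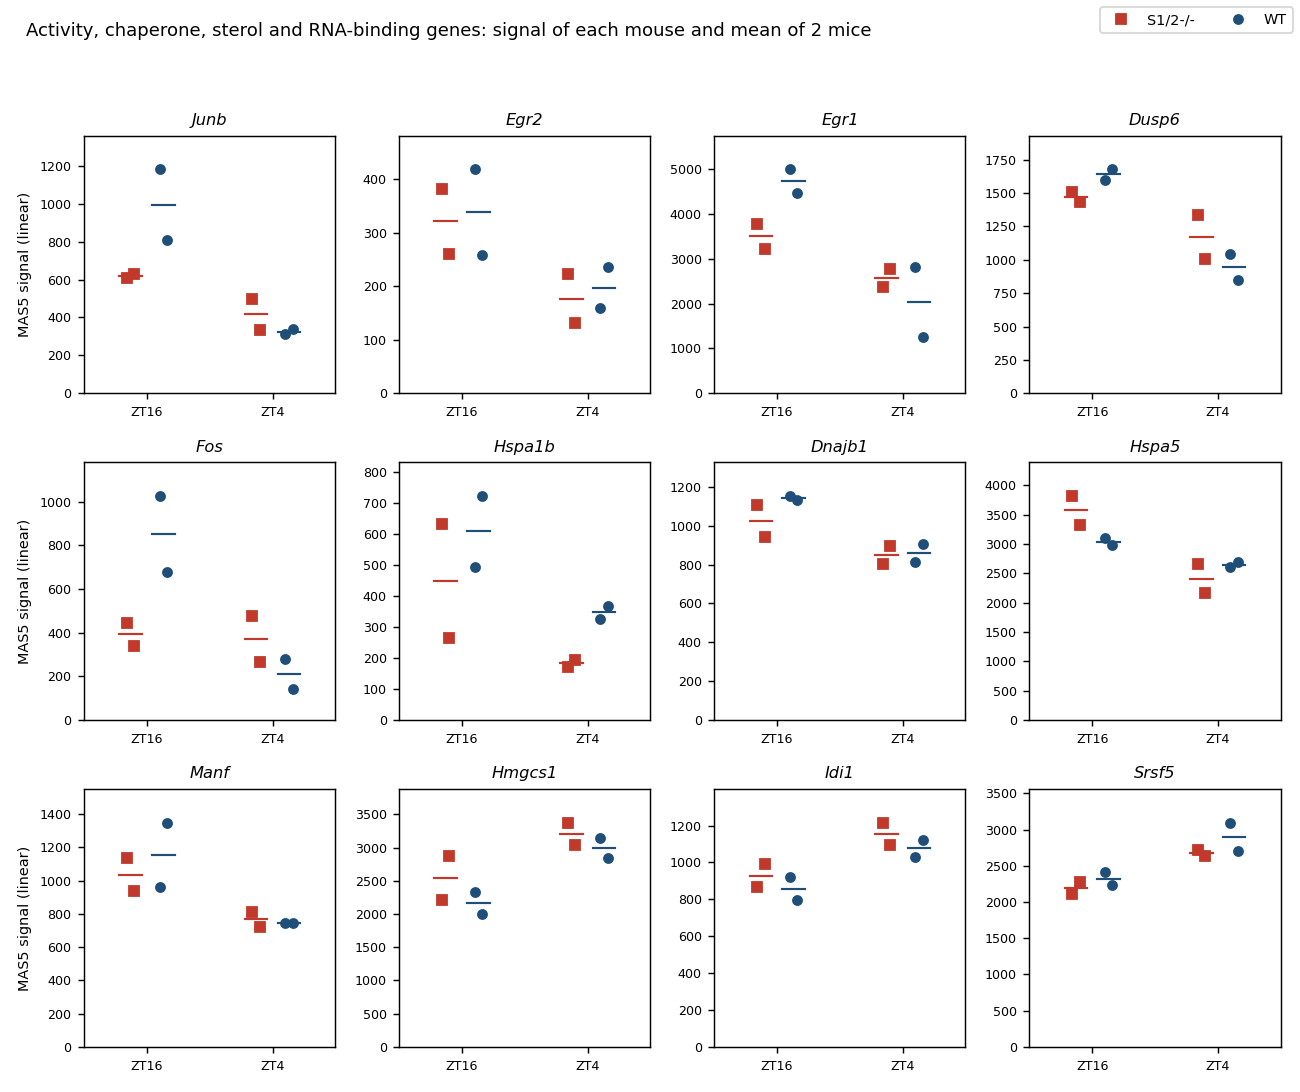
MAS5 signal (linear scale, each panel from 0) of 12 genes of activity, heat shock, the endoplasmic reticulum, sterol synthesis and splicing in each mouse, with ZT16 left of ZT4, squares for S1/2-/-, circles for WT and a line at the mean of the 2 mice. At ZT16 *Junb*, *Egr2*, *Egr1*, *Dusp6*, *Dnajb1*, *Hspa5* and *Manf* are higher and *Idi1* and *Srsf5* lower than in any ZT4 mouse, while *Fos*, *Hspa1b* and *Hmgcs1* overlap.

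*Hspa1b*, the stress-inducible HSP70, had 632 and 265 in the S1/2-/- mice and 494 and 721 in the WT mice at ZT16, against 169.9 and 195 in the S1/2-/- mice and 326 and 367 in the WT mice at ZT4. In each genotype both ZT16 mice were above both ZT4 mice, but 1 S1/2-/- mouse at ZT16 lay below both WT mice at ZT4. The log2 change was 0.98 (95% interval 0.41 to 1.54), 1.17 in S1/2-/- and 0.79 in WT mice. *Dnajb1* and *Chordc1*, co-chaperones of HSP70 and HSP90, had separate times, with 939.7 to 1152 at ZT16 against 802 to 904 at ZT4 and 925 to 979 at ZT16 against 694 to 842 at ZT4 (log2 0.34 and 0.34). At the second *Chordc1* probe set the times overlapped (log2 0.19). *Hspd1*, the mitochondrial HSP60, was lower at ZT16 (2495 to 2905 at ZT16 against 2999 to 3380.4 at ZT4, log2 -0.24). Of the 27 listed heat shock genes on the array, 13 were higher and 14 lower, and the median log2 change was 0.00. An unadjusted p under 0.05 was seen for 5 higher genes and 1 lower gene, 22.2% of the list against 7.94% over all genes.

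In the endoplasmic reticulum, where secreted proteins fold, *Hspa5* (the chaperone BiP) and *Manf* (a secreted factor induced by folding stress) had separate times. *Hspa5* had 3821 and 3330.4 in S1/2-/- and 3102 and 2988 in WT mice at ZT16, and 2657 and 2171 in S1/2-/- and 2606 and 2689 in WT mice at ZT4, and its log2 change was 0.57 in S1/2-/- and 0.20 in WT mice (difference 0.37, 95% interval -0.01 to 0.74). *Manf* had 1135 and 936 in S1/2-/- and 961 and 1348 in WT mice at ZT16, and 814 and 721 in S1/2-/- and 745 and 745 in WT mice at ZT4 (log2 0.52). All 4 ZT4 mice lay close together and the ZT16 mice spread widely above them. *Xbp1*, a transcription factor of the unfolded protein response, had 0.33 in S1/2-/- and 0.47 in WT mice, and *Canx*, the lectin chaperone calnexin, 0.31 over both. Of the 25 listed genes of this group, 14 were higher and 11 lower, 13 of them higher in both genotypes, and the summed signal was 22307 to 25669 at ZT16 and 21200 to 22210 at ZT4. The median was 0.10, and -0.02 without WT ZT16 replicate 1. An unadjusted p under 0.05 was seen for 3, all higher, which is 12% of the list and near the 7.94% over all genes.

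The promoters of *Hspa1b* and *Hspa5* each hold an element known from the heat shock or the endoplasmic reticulum stress response, and the stretches around them are shown with the element in capitals. In *Hspa1b* this is a core of the heat shock element, GAANNTTC, and in *Hspa5* the endoplasmic reticulum stress element (CCAAT, any 9 bases, then CCACG), both searched on both strands.
Hspa1b (chr17:34959289-34959388, - strand): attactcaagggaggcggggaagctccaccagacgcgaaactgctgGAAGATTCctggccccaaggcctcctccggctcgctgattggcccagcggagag
Hspa5 (chr2:34771985-34772083, + strand): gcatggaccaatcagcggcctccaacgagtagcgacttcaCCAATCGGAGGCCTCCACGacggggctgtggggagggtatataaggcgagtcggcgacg

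The elements start 104 and 65 bases before the start of *Hspa1b* and *Hspa5*. Over all windows, 7.86% held the first and 0.119% the second. Other genes of these groups did not all hold them. *Chordc1* had 2 heat shock cores and *Dnajb1* had none in its 2 windows, while the stress element was found for *Canx* and not for *Xbp1*. The sterol element TCACNCCAC, found in 1.24% of windows, starts 137 bases before the start of *Hmgcs1*, and *Idi1* had no sterol element and 2 heat shock cores.

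*Hmgcs1*, which makes the HMG-CoA that enters the pathway, had 2214 and 2868 in S1/2-/- and 2334 and 1994 in WT mice at ZT16, and 3375 and 3039 in S1/2-/- and 3146 and 2838 in WT mice at ZT4. All but 1 ZT16 mouse, an S1/2-/- mouse, were below all ZT4 mice (log2 -0.41, standard error 0.10). *Idi1*, which makes a building block of the isoprenoid chain, had 794 to 991 at ZT16 against 1029 to 1215 at ZT4, with no overlap and changes of -0.31 in S1/2-/- and -0.33 in WT mice. *Sqle*, squalene epoxidase, had -0.30 (95% interval -0.60 to 0.00), and *Mvk*, mevalonate kinase, 0.24. Of 21 listed genes of sterol synthesis and uptake, 9 were higher and 12 lower, with a median log2 change of -0.12, of -0.19 in S1/2-/- and 0.04 in WT mice, and it was 0.04 without S1/2-/- ZT16 replicate 1.

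Genes known to respond to glucocorticoids, whose level in blood follows the time of day, included *Per1* and *Dusp1*. Of 25 on the array 17 were higher and 8 lower, 4 with separate times, and 5 had an unadjusted p under 0.05, all higher. The 5 are 20% of the list, against 7.94% over all 8251 genes, of which 208 were higher and 162 lower with separate times. The median log2 change was 0.10, and 0.17 in S1/2-/- as well as in WT mice. With 1 array left out it was 0.12 to 0.17, and it moved by over 1.5 times without WT ZT4 replicate 2 (0.17), WT ZT16 replicate 2 (0.15) or S1/2-/- ZT4 replicate 1 (0.16). *Nfkbia*, the inhibitor of NF-κB, had 564 and 517 in S1/2-/- and 510.2 and 511 in WT mice at ZT16, and 439 and 426 in S1/2-/- and 418 and 297 in WT mice at ZT4 (log2 0.43). *Fkbp5*, a co-chaperone of the glucocorticoid receptor, had 433 and 348 in S1/2-/- and 404 and 335 in WT mice at ZT16, and 184 and 317 in S1/2-/- and 226 and 330.1 in WT mice at ZT4. Both genes had separate times, those of *Fkbp5* narrowly (log2 0.68 in S1/2-/- and 0.43 in WT mice). At the second *Nfkbia* probe set the times overlapped (log2 0.21). *Cirbp*, an RNA-binding protein induced by cooling, had 858 to 1245 at ZT16 against 1067 to 1411 at ZT4 (log2 -0.23, 95% interval -0.50 to 0.04), and without WT ZT16 replicate 2 its log2 change was -0.10. Of 42 proteasome genes, 31 were lower and 11 higher, 23 were lower and 8 higher in both genotypes, and the median log2 change was -0.10. Over all genes, 4139 were lower and 4112 higher. An unadjusted p under 0.05 was seen for 3 lower and 3 higher proteasome genes, 14.3% against 7.94% over all genes. Their summed signals overlapped, at 51039 to 57859 at ZT16 and 54244 to 59321 at ZT4. The cytosolic ribosome (36 genes) and oxidative phosphorylation (73 genes) had medians of -0.03 and -0.02, close to the median of 0.00 over all genes.

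**Figure D4:**
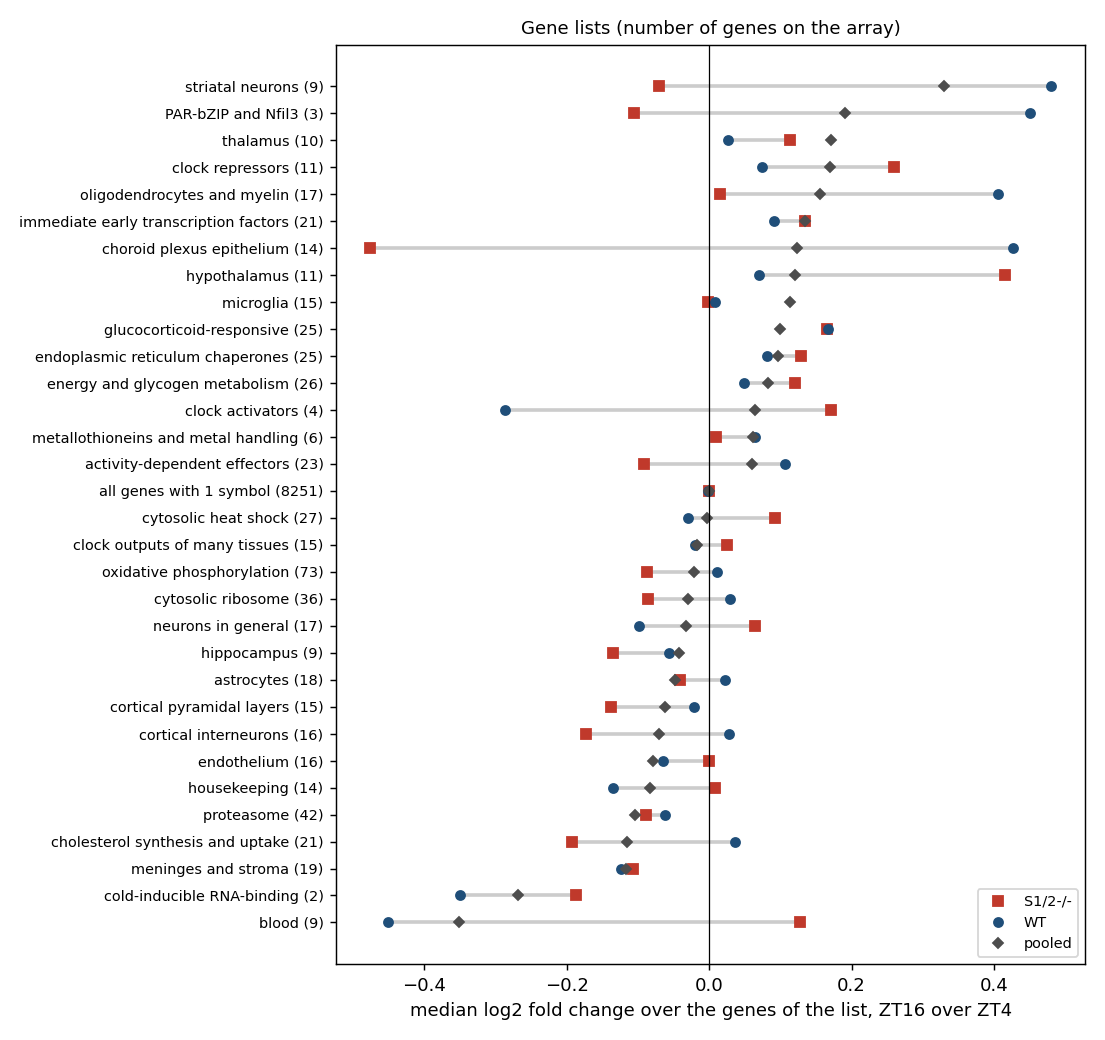
Median log2 fold change of ZT16 over ZT4 over the genes of each list, with the number of genes on the array in brackets. Squares are S1/2-/-, circles WT mice and diamonds the pooled change. Clock repressors, endoplasmic reticulum chaperones and glucocorticoid-responsive genes are among several lists above 0 in both genotypes, and the proteasome is among several below. The lists of choroid plexus, blood, PAR-bZIP factors with *Nfil3*, striatum, clock activators and myelin lie far apart between the genotypes.

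Markers of myelin, striatum and choroid plexus, tissues next to the cortical grey matter, had medians that lay apart between the genotypes, and this difference was not tested. Those of meninges and stroma (-0.11 in S1/2-/- and -0.12 in WT mice) and of hippocampus (-0.14 in S1/2-/- and -0.06 in WT mice) lay closer together. Of 17 myelin and oligodendrocyte markers 15 were higher at ZT16 over both genotypes, with a median of 0.01 in S1/2-/- and 0.41 in WT mice. Only 8 of the markers were higher in both genotypes, and 9 went opposite ways in them. Their pooled median of 0.16 was 0.08 without WT ZT4 replicate 1, 0.24 without WT ZT4 replicate 2 and 0.23 without WT ZT16 replicate 1. Their summed signal was 35817 to 40877 at ZT16 and 26945 to 41531 at ZT4. *Mag* and *Cldn11*, a receptor and a tight junction protein of myelin, had 0.27 and 0.25 in S1/2-/- and 0.66 and 0.50 in WT mice, and *Anln* above belongs to this list. The 9 striatal markers summed to 13652 to 22380 at ZT16 and 9414 to 22178 at ZT4, with a median of -0.07 in S1/2-/- and 0.48 in WT mice. The 14 choroid plexus markers summed to 3480 to 7480 at ZT16 and 3232 to 5802 at ZT4, with a median of -0.48 in S1/2-/- and 0.43 in WT mice. Their pooled median was 0.12, and -0.03 to 0.23 with 1 array left out, below 0 without WT ZT4 replicate 1, WT ZT4 replicate 2 or WT ZT16 replicate 1. *Ttr*, a choroid plexus gene chosen after its values were seen, had 102 and 150.4 in S1/2-/- and 2582 and 2412 in WT mice at ZT16, and 1456 and 146 in S1/2-/- and 83.2 and 331 in WT mice at ZT4. No marker was at 0 on any array, since every signal of the table is above it. The part of these tissues in the values of *Anln*, *Fos*, *Junb* and the other genes above was not tested.

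The 9 blood markers summed to 3171 to 4768 at ZT16 and to 3440 to 9093 at ZT4. Of these, 3 were higher and 6 lower at ZT16, 4 went opposite ways in the genotypes, and the median was 0.13 in S1/2-/- and -0.45 in WT mice. An unadjusted p under 0.05 was seen for 22.2% of them, against 7.94% over all genes. *Hba-a1* and *Hbb-b2*, haemoglobin chains, were the 2 with an unadjusted p under 0.05, with log2 changes of -0.66 and -0.998, the second with -1.55 in S1/2-/- and -0.45 in WT mice, while *Alas2*, an enzyme of haem synthesis in red cells, had 0.40. Markers of pyramidal layers (15 genes), neurons in general (17), astrocytes (18) and microglia (15) had medians of -0.06, -0.03, -0.05 and 0.11. *Camk2a*, a kinase of excitatory neurons, had 615 and 631 in S1/2-/- and 617 and 210.3 in WT mice at ZT16, and 751 and 686 in S1/2-/- and 934 and 609.9 in WT mice at ZT4. The lowest of these is WT ZT16 replicate 2. No marker list separated the 4 ZT16 from the 4 ZT4 arrays by its summed signal.

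Over all probe sets, the changes in S1/2-/- and WT mice, which come from different mice, had the same sign in 52.7%, and 54.9% above the 40th percentile. Across the 12422 probe sets these changes correlated at a Pearson r of 0.012 and a Spearman rho of 0.047, and across the 7453 above the 40th percentile at 0.114 and 0.141. Probe sets are not independent replicates, and these values describe the arrays without a test.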

How the data were processed

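Total RNA from cortex of 8 mice was hybridised to Affymetrix arrays. The authors deposited 1 table of MAS5 signals, which are linear intensity values scaled by them to a trimmed mean of 500 per array. Signals below 1 (64 values) were set to 1 and log2 was taken, and the 66 control probe sets were left out. limma (version 3.58.1, R 4.3.3) was fitted with genotype and time as additive terms and an intensity trend, with 5 residual degrees of freedom. Probe sets were called at a fold change over 1.5 and a Benjamini-Hochberg adjusted p under 0.05 over all 12422. The change in each genotype and its difference came from a fit of the 4 group means. Replicates are numbered in the labels and come from individual mice per the paper, and their number limits the precision. Named genes were the 15 probe sets with the lowest p in each direction above the 40th percentile of mean log2 signal, all listed clock genes, up to 4 members of each list described, and up to 20 probe sets shared by the genotypes. Probe sets with several symbols (396) or none (1193) were not named. Lists use the strongest probe set of a gene, which is also the one given where no other is mentioned. Members, lists and rules were chosen with earlier results of these data known. The fit was tested on simulated data. Alternatives were other scalings, filters, a pseudocount of 16, other model terms, each genotype alone, a replicate block, and each array left out.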

Additional observations from a re-analysis of the deposited data

Results flagged for a closer look

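In 8 of the 140 groups of 4 mice examined, 1 mouse lay far from the other 3 of its time, by a gap of most of the range of the group. Chance gives such a gap in about 1 of 20 groups. At ZT16 these were *Nfkbia* at 564.2 in S1/2-/- replicate 1, *Pheta1* at 265.5 in WT replicate 2 and *Tspan4* at 159.5 in S1/2-/- replicate 2. At ZT4 they were *Nfkbia* at 296.7 in WT replicate 2, *Rora* at 798.7 in WT replicate 1, *Hspa5* at 2171 in S1/2-/- replicate 2, *Junb* at 499.6 in S1/2-/- replicate 1 and *Dlx5* at 27.5 in WT replicate 2.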

How the results depend on the processing

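With 4 mice per time, no probe set passed the adjusted test for ZT16 against ZT4 under any scaling, filter, pseudocount or model term tried, nor with a replicate block or with any array left out. The count was 419 with the unadjusted p and the fold threshold (143 with the filter at the 40th percentile and 37 at the 60th), and 1 with WT mice alone (*Dusp1*, log2 1.67, adjusted p = 0.0286 from limma). The 132 shared probe sets became 225 to 265 with 1 array left out, which leaves fewer arrays to separate. Called differences between the genotypes were 2 with a replicate block (*Tac1* and *Penk*), and 0 to 1 with an array left out (*Spin1* without WT ZT16 replicate 1, *Dusp1* without S1/2-/- ZT4 replicate 2). Over the probe sets above the 40th percentile, differences between the replicates correlated little between the times (r = 0.06 in WT and 0.04 in S1/2-/- mice). A correlation over so many probe sets cannot exclude a link between mice of the same number in some genes. The summed signals of striatal, hypothalamus, cortical interneuron, and meninges and stroma markers were higher in replicate 2 than in replicate 1 in each group. So were those of activity-dependent effectors, metallothioneins, housekeeping genes, and PAR-bZIP factors with *Nfil3*. Replicate 1 was higher in each group for immediate early factors, endoplasmic reticulum chaperones and markers of cortical pyramidal layers. The remaining lists had neither order in every group. The direction turned for *Nr4a1* (-0.090), *Dusp1* (-0.20) and *Dbp* (-0.11) with S1/2-/- mice alone, and for *Cry2* without WT ZT16 replicate 2 (0.027, and down to -0.36 with another array left out). The cause was not tested. Dim probe sets limit what the arrays can show, since 24.0% to 25.6% of signals were under 50 on each array.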
